A study of Mus musculus with 6 samples.

Results

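The genes described here encode the transferases of phase II metabolism in mouse liver: the glutathione S-transferases, the UDP-glucuronosyltransferases and the sulfotransferases. They were taken by symbol, as every gene whose name begins with Gsta, Gstm, Gstp, Gstt, Gstk, Gsto, Gstz, Mgst, Ugt1, Ugt2, Ugt3 or Sult and that has a probe set of its own on the array. A probe set is a group of short probes read as a single value. The rule found 52 of 22690 probe sets, which stand for 40 of 12393 genes, and used no measured value. Of these 40 genes, 34 passed the filter on low signals and were tested among 9685 genes in all. They were 18 cytosolic and mitochondrial glutathione S-transferases, 2 microsomal ones, 8 UDP-glucuronosyltransferases and 6 sulfotransferases. Counted with the UDP-glucuronosyltransferases are Ugt3a1 and Ugt3a2, of the related Ugt3 family.

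Phase II enzymes attach a polar group to foreign compounds, hormones, bilirubin and bile acids, which makes them easier to excrete. Glutathione S-transferases couple electrophiles to glutathione, UDP-glucuronosyltransferases of the endoplasmic reticulum use UDP-glucuronate, and cytosolic sulfotransferases use the sulfate donor PAPS. Liver is a main site of all of these reactions, and many of the genes are known to be controlled there by nuclear receptors, by the antioxidant response factor NRF2 and by sex.

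The animals were wild-type male C57Bl/6 mice. Recombinant FGF19, purified FGF15 or vehicle was given into the jugular vein, and whole liver was taken 6 h later, during which the mice had no food. FGF15 is a hormone of the mouse intestine and FGF19 is its human counterpart. Each group had 2 arrays, 6 in all, and the sources used here give neither dose, nor age, nor the number of mice behind the arrays. The p-values therefore set a difference against the spread between arrays of a group, an estimate partly shared across genes. That spread may be technical.

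All arrays had been scaled by the authors to the same trimmed mean signal, 200.1. The first FGF19 array stood apart from the others in its controls: its 18S ribosomal RNA probe set had a signal of 32.3, where the other arrays had 4.25 to 5.82, and its ratio of 3′ to 5′ β-actin signal was 1.63, against 1.30 to 1.39. Transferase calls that ended without this array are named as such, and list counts without it are given for some of the lists where they changed. Of the hepatocyte markers, all 6 measured passed the filter. With FGF19 0 of them were called in limma and 4 were lower at an unadjusted p under 0.05. With FGF15 only Tat, the tyrosine aminotransferase, fell (log2 −0.73, adjusted p = 0.000369). Leaving out an FGF19 array changed these calls. With FGF19, falls appeared without the second array and a rise appeared without the first. With FGF15, more falls appeared without either FGF19 array. Their summed signal was 40744 and 52053 with FGF19, 44890 and 47948 with FGF15, and 54796 and 53318 with vehicle.

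Kupffer cells are liver macrophages, and their markers were lower with both hormones. Their summed signal was 3447 and 3411 with FGF19, 3407 and 3532 with FGF15, and 6407 and 6322 with vehicle. Of 10 markers, 9 fell with FGF19 (median log2 difference −0.82) and 10 fell with FGF15 (median −0.76). In whole-liver RNA, fewer cells of a type and less RNA per cell cannot be told apart. The part of these cells in the transferase values was not tested. Of the other cell types, 2 of 6 stellate cell markers fell with each hormone, 1 of 3 neutrophil markers fell with FGF19 and 2 of 3 with FGF15, and 1 of 7 endothelial markers fell with FGF15. The neutrophil call with FGF19, on S100a8, ended without the first FGF19 array or either vehicle array (adjusted p of 0.0560 to 0.0787) and with centring on array medians (0.0525). Of the stellate calls, those on Col1a1 ended without either vehicle array, and with FGF19 also without either FGF19 array (0.0522 to 0.171). No cholangiocyte, lymphocyte or kidney marker was called against vehicle, and at an unadjusted p under 0.05 the count was also 0. Of the 2 small intestine markers tested, Fabp2 rose with both hormones, while Vil1, Fabp6 and Cdx1 were under the filter on low signals.

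Against vehicle, 14 of the 34 transferase genes rose and 8 fell with FGF19, at a Benjamini-Hochberg adjusted p under 0.05 in limma. Over all genes tested, 6.29% rose and 7.27% fell, against 41.2% and 23.5% of the transferases. With FGF15, 10 transferase genes rose and 7 fell (29.4% and 20.6%), where 5.91% of all genes rose and 6.67% fell. These shares were not matched for signal level, and the transferases were not tested against them. The median log2 difference of the transferases was 0.07 with FGF19 and 0.04 with FGF15, and that of all genes tested −0.07 and −0.05. Rising and falling genes were unevenly spread over the families. Of the 18 cytosolic and mitochondrial glutathione S-transferases, 8 rose and 2 fell with FGF19 and 7 rose and 1 fell with FGF15. Of the 8 genes counted as UDP-glucuronosyltransferases, 2 rose and 4 fell with either hormone. Those that rose were Ugt2a3 and Ugt3a1, and those that fell were Ugt2b genes. Both comparisons use the same 2 vehicle arrays, so the calls for the hormones are not independent of each other.

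**Figure D1:**
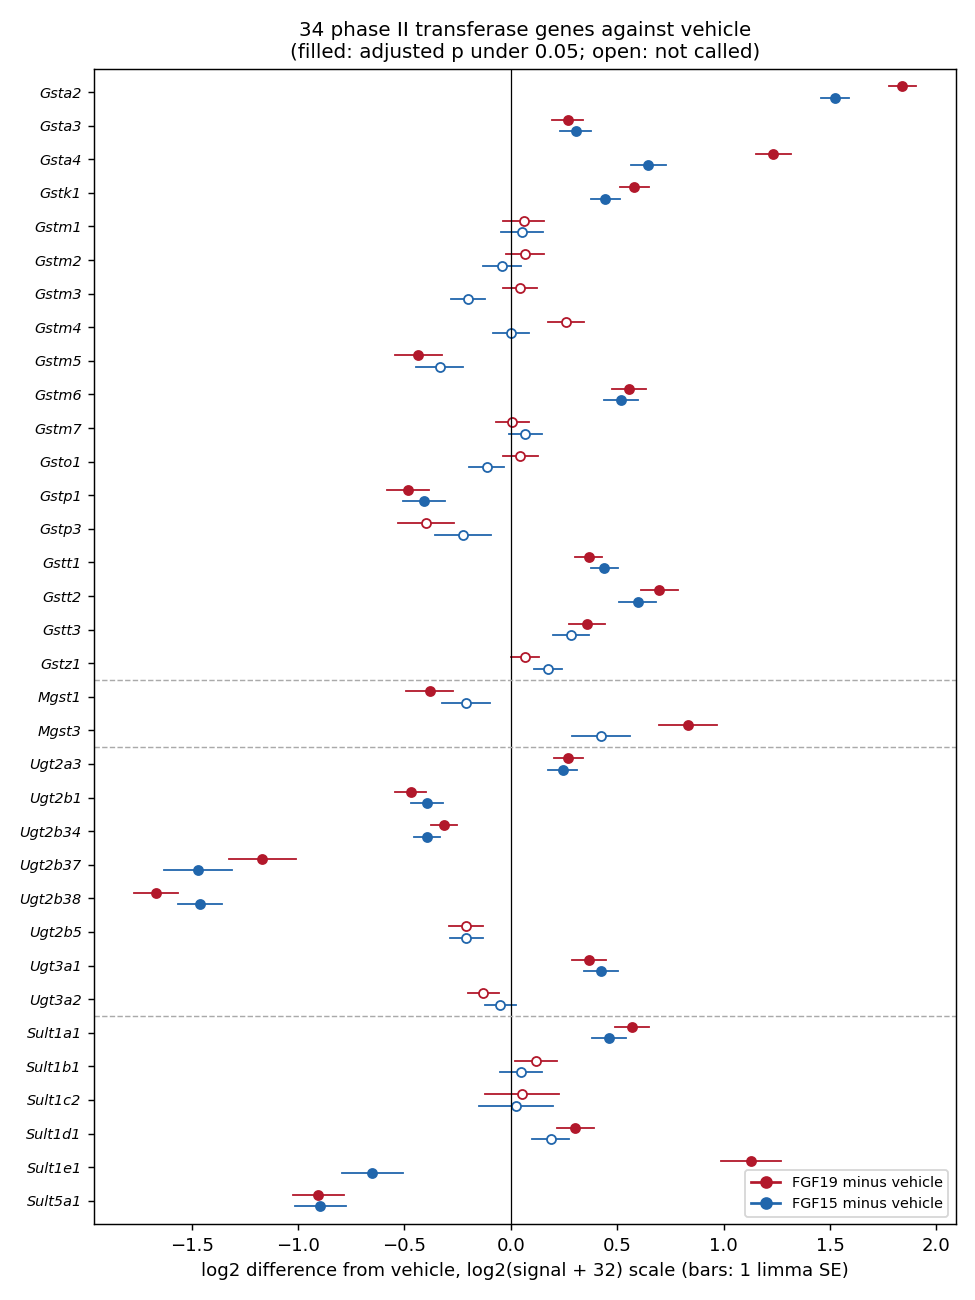
Log2 difference from vehicle (horizontal axis, log2(signal + 32) scale) of the 34 tested transferase genes (rows), with FGF19 above FGF15 in each row. Points are limma estimates, bars are 1 standard error, filled points passed an adjusted p under 0.05 and open points did not. Gsta2 lies farthest to the right with both hormones (1.84 and 1.52), and Ugt2b37 and Ugt2b38 farthest to the left.

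The level of each array was set by its trimmed mean. Centring each array on its median instead moved the median difference of all genes to 0.07 with FGF19 and 0.07 with FGF15, and the calls over all genes to 1218 higher and 330 lower with FGF19 and 1007 higher and 356 lower with FGF15. The transferases then numbered 15 higher and 5 lower with FGF19 and 13 higher and 5 lower with FGF15. Under that scaling 9 of the 18 cytosolic and mitochondrial glutathione S-transferases rose with each hormone and 3 of the 8 UDP-glucuronosyltransferases fell with each. Without the first FGF19 array, 11 transferases rose and 6 fell with FGF19, and 17 of the 22 calls remained. Without the intensity trend in limma's estimate of the spread, 8 rose and 4 fell with FGF19 and 6 rose and 5 fell with FGF15.

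The alpha class of glutathione S-transferases held Gsta2, the transferase gene with the largest rise with either hormone. Gsta2, an enzyme whose gene is a classic target of NRF2, had signals of 1265 and 1204 with FGF19, 990.3 and 976.7 with FGF15, and 322 and 321 with vehicle (probe set 1421040_a_at). The 3 groups did not overlap. So few arrays easily lie apart from vehicle, as those of Ugt2b5 and Gstp3 did without a call. The share of all genes without overlap was not counted. Fitted changes, and all fold values given here, are on the log2(signal + 32) scale, which understates the change of genes with low signals. Gsta2 rose 3.58-fold with FGF19 (log2 1.84 ± 0.07, limma standard error, adjusted p = 1.39e-07) and 2.87-fold with FGF15 (log2 1.52 ± 0.07, adjusted p = 8.78e-07). Probe set 1421041_s_at, paired with 3 genes that include the alpha class, had smaller log2 differences in a fit of all probe sets. They were 1.27 with FGF19 and 0.61 with FGF15. Whether the Gsta2 probes also bind related transcripts was not tested. Gsta4, which conjugates the lipid peroxidation product 4-hydroxynonenal, had signals of 678 and 707 with FGF19, 448 and 452 with FGF15, and 257 and 297 with vehicle. Here too the arrays of each group lay apart from those of the others. Gsta4 rose 2.35-fold with FGF19 (log2 1.23 ± 0.08, adjusted p = 1.02e-05) and 1.56-fold with FGF15 (log2 0.65 ± 0.08, adjusted p = 0.000774).

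Gsta3, the alpha enzyme known in mice for conjugating aflatoxin epoxide, had signals of 5744 and 6201 with FGF19, 5863 and 6392 with FGF15, and 4868 and 5039 with vehicle. The treated arrays overlapped with one another and lay above both vehicle arrays. The rise was 1.20-fold with FGF19 (adjusted p = 0.0394) and 1.23-fold with FGF15 (adjusted p = 0.0243). Both calls ended when either vehicle array was left out (adjusted p of 0.117 to 0.246). The FGF15 call also ended without the second FGF15 array and the FGF19 call without the second FGF19 array or either FGF15 array (adjusted p = 0.186, 0.0839, 0.0554 and 0.0558). A second Gsta3 probe set (1423437_at) read 1499.7 and 1449.7 with FGF19, 1532 and 1477 with FGF15, and 1093 and 1031 with vehicle. In a fit of all probe sets it rose by log2 0.46 with FGF19 (adjusted p = 0.00209) and 0.49 with FGF15 (adjusted p = 0.00148), and these calls held whichever array was left out.

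**Figure D2:**
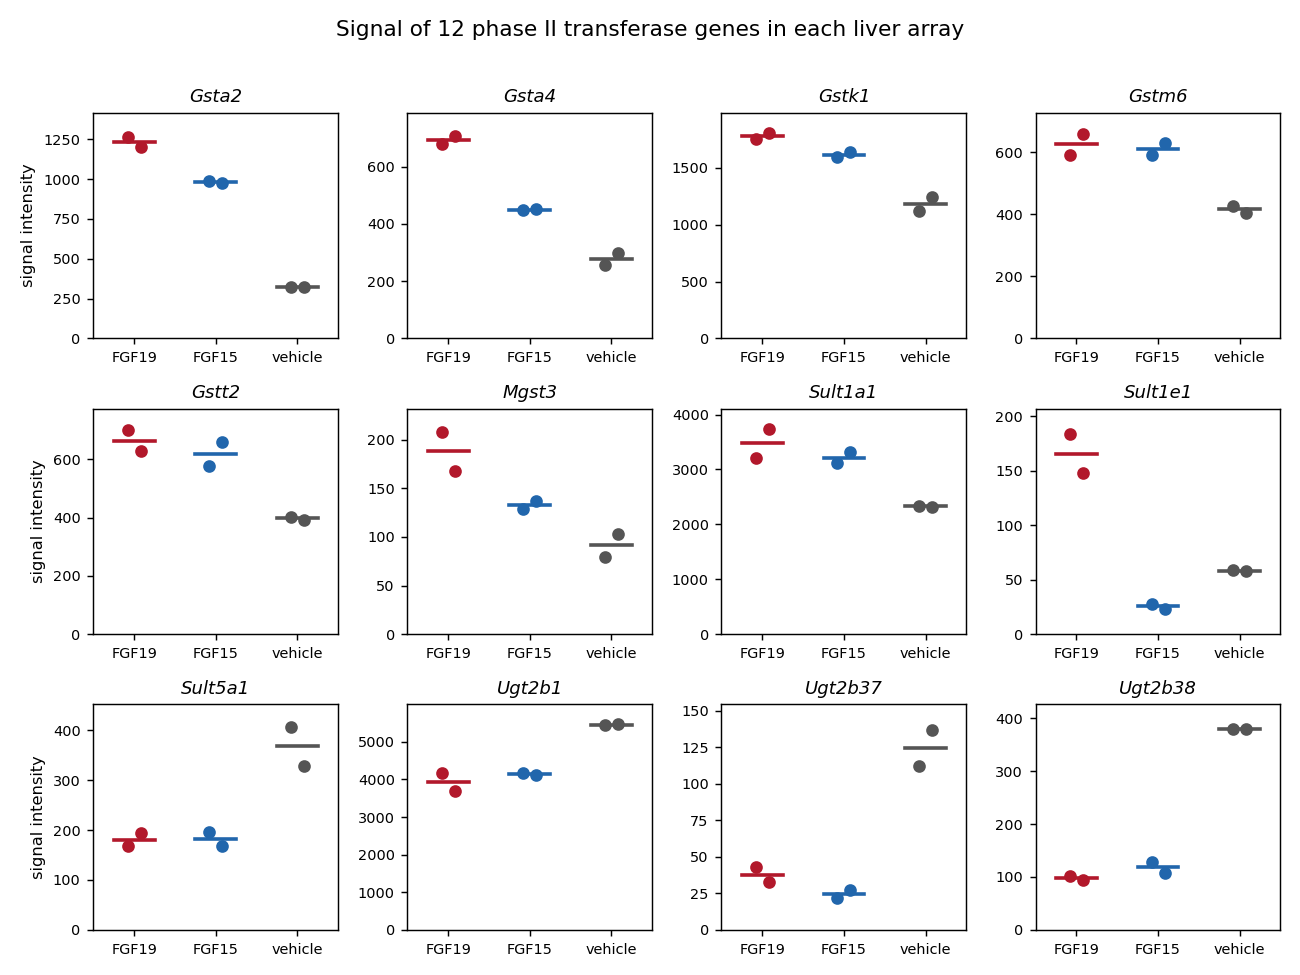
Signal intensity (vertical axes, linear, starting at 0) of 12 transferase genes in each array, with FGF19, FGF15 and vehicle left to right. Each point is an array and each line the mean of the 2 arrays of a group. In Gsta2 and Gsta4 the groups lie in 3 separate steps, in Sult1e1 the FGF19 arrays lie above vehicle and the FGF15 arrays below it, and in Ugt2b37, Ugt2b38 and Sult5a1 both hormones lie below vehicle.

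In the kappa and theta classes the changes were smaller and all called ones were rises. Gstk1, the enzyme of mitochondria and peroxisomes, had signals of 1758 and 1803 with FGF19, 1594 and 1639 with FGF15, and 1121 and 1242 with vehicle. It rose by log2 0.58 ± 0.07 with FGF19 (adjusted p = 0.000454) and 0.44 ± 0.07 with FGF15 (adjusted p = 0.00238), and the groups did not overlap. The theta genes Gstt3, Gstt1 and Gstt2 lie near each other on chromosome 10. Gstt2 had 701 and 628 with FGF19, 576 and 659 with FGF15, and 403 and 391 with vehicle, and Gstt1 had 1888 and 1798 with FGF19, 1919 and 1963 with FGF15, and 1456 and 1391 with vehicle. All 4 treated arrays lay above both vehicle arrays for either gene. Gstt2 rose 1.62-fold with FGF19 (adjusted p = 0.000585) and 1.51-fold with FGF15 (adjusted p = 0.00160), and Gstt1 rose 1.29-fold with FGF19 (adjusted p = 0.00438) and 1.36-fold with FGF15 (adjusted p = 0.00158).

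Gstt3 had 1081 and 1219 with FGF19, 1161 and 1019 with FGF15, and 918 and 859 with vehicle, again with no overlap between treated and vehicle arrays. It rose with FGF19 (log2 0.36 ± 0.09, adjusted p = 0.0212) and had a log2 difference of 0.28 with FGF15 that was not called (adjusted p = 0.0586). The Gstt1 call with FGF19 ended without the second vehicle array (adjusted p = 0.0577). The Gstt3 call ended without either vehicle array or the second FGF19 array (adjusted p of 0.0718 to 0.135) and under quantile normalization.

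The mu class lies in a cluster on chromosome 3 in the order Gstm5, Gstm7, Gstm6, Gstm3, Gstm2, Gstm1, Gstm4, and its members did not move together. Gstm6 had signals of 592 and 661 with FGF19, 591 and 629 with FGF15, and 428 and 404 with vehicle. It rose 1.47-fold with FGF19 (adjusted p = 0.00144) and 1.43-fold with FGF15 (adjusted p = 0.00220). Gstm5 had 159 and 181 with FGF19, 203 and 167 with FGF15, and 242 and 239.7 with vehicle, so that every treated array lay below both vehicle arrays. It fell with FGF19 (log2 −0.44 ± 0.11, adjusted p = 0.0277) and had a log2 difference of −0.34 with FGF15 that was not called (adjusted p = 0.0783). The FGF19 call on Gstm5 ended without any one of the 4 FGF19 and vehicle arrays (adjusted p of 0.0519 to 0.166) and with centring on array medians (adjusted p = 0.0938).

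Gstm1, with one of the 5 highest signals among these probe sets, had 5232 and 6515 with FGF19, 5605 and 6019.8 with FGF15, and 5572 and 5629 with vehicle (1416416_x_at). The groups overlapped and Gstm1 was not called. A second Gstm1 probe set (1425627_x_at) had 1642 and 1416 with FGF19, 1144 and 1053 with FGF15, and 1091 and 1121 with vehicle. In the fit of all probe sets it was higher with FGF19 than with vehicle (log2 0.45, adjusted p = 0.00779) and than with FGF15 (log2 0.46, adjusted p = 0.0140). Probe sets ending in _x_at or _s_at can bind related transcripts, so the member of this family behind either value is uncertain. Leaving out the first vehicle array ended the call against vehicle (adjusted p = 0.0720), and leaving out the first FGF19 or second FGF15 array ended the call against FGF15.

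Gstm3 was likewise not called by its brighter probe set (1427474_s_at), but the other (1427473_at) read 272 and 288 with FGF19, 167 and 160.5 with FGF15, and 239 and 249.9 with vehicle. On that probe set the FGF15 arrays lay below all others. It fell with FGF15 (log2 −0.50 ± 0.09, adjusted p = 0.00633, lost without the second vehicle array at 0.0572), and it was higher with FGF19 than with FGF15 (log2 0.67 ± 0.09, adjusted p = 0.00279). Gstm2, Gstm4 and Gstm7 were called with neither hormone. Their log2 differences were 0.07, 0.26 and 0.01 with FGF19 and −0.04, 0.00 and 0.07 with FGF15.

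Of the 2 pi class genes, Gstp1 fell and Gstp3 was not called. Gstp1, whose level in mouse liver is known to be higher in males, had signals of 7104 and 8879.8 with FGF19, 8239 and 8528 with FGF15, and 11286.5 and 10954 with vehicle. All 4 treated arrays lay below both vehicle arrays. Gstp1 fell 1.40-fold with FGF19 (log2 −0.48 ± 0.10, adjusted p = 0.00997) and 1.33-fold with FGF15 (log2 −0.41 ± 0.10, adjusted p = 0.0245). Without either vehicle array the FGF19 call ended (adjusted p = 0.0954 and 0.0654), and the FGF15 call ended without any one of the 4 arrays compared (0.103 to 0.165) and with centring on array medians (0.0922). Gstp3 had log2 differences of −0.40 with FGF19 and −0.22 with FGF15 and was not called (adjusted p = 0.0745 and 0.320). Gstz1, the maleylacetoacetate isomerase of tyrosine breakdown, and Gsto1, an omega enzyme that can reduce dehydroascorbate, were not called either. Their log2 differences were 0.07 and 0.04 with FGF19 and 0.18 and −0.11 with FGF15.

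The microsomal glutathione S-transferases are membrane proteins of a separate family. Mgst3 had signals of 208 and 167 with FGF19, 129 and 137 with FGF15, and 79.9 and 103 with vehicle, and the 3 groups did not overlap. It rose 1.78-fold with FGF19 (log2 0.83 ± 0.13, adjusted p = 0.00288), while the log2 difference of 0.42 ± 0.13 with FGF15 was not called (adjusted p = 0.0702). The Mgst3 call ended when all probe sets of the gene were averaged (log2 0.21, adjusted p = 0.338). The other probe set, under the filter at 1.53 to 20.8, had a log2 difference of −0.42 with FGF19. Mgst1, the abundant enzyme of the endoplasmic reticulum and outer mitochondrial membrane, had 7872 and 10314 with FGF19, 9869 and 10446 with FGF15, and 11819.6 and 11684 with vehicle. Its treated arrays lay below both vehicle arrays, and the fall with FGF19 (log2 −0.38 ± 0.11, adjusted p = 0.0494) was lost in 12 of 19 alternative settings, among them those without the first FGF19 array (adjusted p = 0.0713, log2 −0.19), without either FGF15 array (0.0742 and 0.0754) and without either vehicle array (0.217 and 0.172). Mgst2 was under the filter.

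Most called UDP-glucuronosyltransferase genes fell. The largest falls were in Ugt2b38 and Ugt2b37, members of the 2B family, which in rodents conjugates steroids, bile acids and drugs. Ugt2b38 had signals of 102 and 93.5 with FGF19, 128 and 108 with FGF15, and 379.7 and 380.1 with vehicle. Ugt2b37 had signals of 43.0 and 32.5 with FGF19, 21.7 and 27.1 with FGF15, and 112 and 137 with vehicle. For both genes the vehicle arrays lay far above all 4 treated arrays. Ugt2b38 fell 3.18-fold with FGF19 (log2 −1.67 ± 0.10, adjusted p = 6.25e-06) and 2.75-fold with FGF15 (log2 −1.46 ± 0.10, adjusted p = 1.79e-05). On the log2(signal + 32) scale, which understates falls to signals this low, Ugt2b37 fell 2.25-fold with FGF19 (log2 −1.17 ± 0.16, adjusted p = 0.00105) and 2.77-fold with FGF15 (log2 −1.47 ± 0.16, adjusted p = 0.000272). These 4 calls held in every alternative setting. Whether the probes of these close relatives also bind one another's transcripts was not tested.

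Ugt2b5 lies next to Ugt2b37 on chromosome 5. Its signals were 5351 and 6104 with FGF19, 5536 and 5917 with FGF15, and 6654 and 6587 with vehicle. The treated arrays lay below both vehicle arrays, but the log2 difference of −0.21 ± 0.08 with either hormone was not called (adjusted p = 0.112 with FGF19 and 0.123 with FGF15). The RefSeq promoter windows of the 3 genes, 250 bases before the transcription start and 50 after it, are shown because the genes are close relatives whose signals changed by different amounts. All are on the minus strand of GRCm38.p6, and capitals mark the longest run that the 3 windows share, 62 bases.
Ugt2b37, chr5:87254739-87255038: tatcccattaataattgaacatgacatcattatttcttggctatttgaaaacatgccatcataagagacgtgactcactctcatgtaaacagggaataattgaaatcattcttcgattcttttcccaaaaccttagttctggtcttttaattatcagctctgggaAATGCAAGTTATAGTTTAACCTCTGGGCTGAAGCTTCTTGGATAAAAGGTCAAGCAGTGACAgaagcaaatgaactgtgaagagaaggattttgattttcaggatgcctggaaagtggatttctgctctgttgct
Ugt2b38, chr5:87424154-87424453: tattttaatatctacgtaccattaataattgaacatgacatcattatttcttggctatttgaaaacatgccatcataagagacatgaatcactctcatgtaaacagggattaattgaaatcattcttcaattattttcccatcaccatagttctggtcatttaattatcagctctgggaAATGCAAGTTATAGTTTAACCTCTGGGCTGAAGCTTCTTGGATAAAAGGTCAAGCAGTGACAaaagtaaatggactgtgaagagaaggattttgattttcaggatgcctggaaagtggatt
Ugt2b5, chr5:87140291-87140590: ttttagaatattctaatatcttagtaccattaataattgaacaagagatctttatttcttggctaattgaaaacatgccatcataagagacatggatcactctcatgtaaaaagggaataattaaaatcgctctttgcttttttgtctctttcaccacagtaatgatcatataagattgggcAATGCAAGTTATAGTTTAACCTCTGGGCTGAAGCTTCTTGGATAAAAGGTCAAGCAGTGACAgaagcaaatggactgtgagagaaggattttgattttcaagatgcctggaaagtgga
Aligned over their length, the Ugt2b37 and Ugt2b38 windows were identical at 273 of 286 bases (95.5%, gaps left out), Ugt2b37 and Ugt2b5 at 247 of 276 (89.5%), and Ugt2b38 and Ugt2b5 at 261 of 290 (90.0%). The other pairs among the 6 measured Ugt2 genes of the region were identical at 59.6% to 67.5%. The shared run holds the nuclear receptor half-site AGGTCA on the sense strand in all 3 genes, at bases −39 to −34 of Ugt2b37, −25 to −20 of Ugt2b38 and −22 to −17 of Ugt2b5. That motif, searched on both strands, is in 16.3% of all 32851 promoter windows, so its presence is a description of these letters only.

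Ugt2b1 and Ugt2b34 fell less. Ugt2b1 had signals of 4179 and 3696 with FGF19, 4172 and 4117 with FGF15, and 5447 and 5465 with vehicle, and Ugt2b34 had 2211 and 2149 with FGF19, 2073 and 2057 with FGF15, and 2739 and 2703 with vehicle. Treated and vehicle arrays did not overlap in either gene. Ugt2b1 fell by log2 0.47 with FGF19 (adjusted p = 0.00233) and by 0.39 with FGF15 (adjusted p = 0.00666), and Ugt2b34 fell by log2 0.32 with FGF19 (adjusted p = 0.00717) and by 0.39 with FGF15 (adjusted p = 0.00223). The other probe set of Ugt2b34 (1427960_at) fell by log2 0.36 with FGF19 and by 0.39 with FGF15. The FGF15 call on Ugt2b1 ended without either vehicle array or the second FGF15 array (adjusted p of 0.0551 to 0.0690), and the FGF19 call on Ugt2b34 without either vehicle array (0.0797 and 0.0605). Centring on array medians ended both of these calls.

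Ugt2a3 and Ugt3a1 were the UDP-glycosyltransferase genes that rose. Ugt2a3 had signals of 1815 and 1838 with FGF19, 1702 and 1892 with FGF15, and 1497.7 and 1523 with vehicle. It lies between Ugt2b37 and Ugt2b38 in gene order, with no other protein-coding gene between them, and its treated arrays lay above both vehicle arrays while those of its neighbours lay below. The rise was 1.21-fold with FGF19 (adjusted p = 0.0294) and 1.18-fold with FGF15 (adjusted p = 0.0461). The FGF19 call ended without any one of the 4 FGF19 and vehicle arrays (adjusted p of 0.0683 to 0.169) and the FGF15 call without either vehicle array or the second FGF15 array (0.164 to 0.259).

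Ugt3a1, a relative that in humans uses UDP-N-acetylglucosamine instead of UDP-glucuronate, had 769 and 703 with FGF19, 814 and 721 with FGF15, and 555 and 570.2 with vehicle (1424493_s_at). Treated and vehicle arrays did not overlap, and it rose 1.29-fold with FGF19 (adjusted p = 0.0135) and 1.34-fold with FGF15 (adjusted p = 0.00730). A second probe set (1451373_at) was not called and averaging the probe sets ended both calls, as did leaving out the first vehicle array (adjusted p = 0.0988 and 0.0654). Without the second vehicle array or the first FGF19 array the FGF19 call ended too (0.0657 and 0.0909). Ugt3a2, its neighbour on chromosome 15, was not called, with log2 differences of −0.13 with FGF19 and −0.05 with FGF15. No probe set was paired with a single Ugt1 gene. The 3 probe sets that list 8 Ugt1 genes each, and so read the family without telling its members apart, had signals of 4091 to 7336 over the 6 arrays, and none was called.

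**Figure D3:**
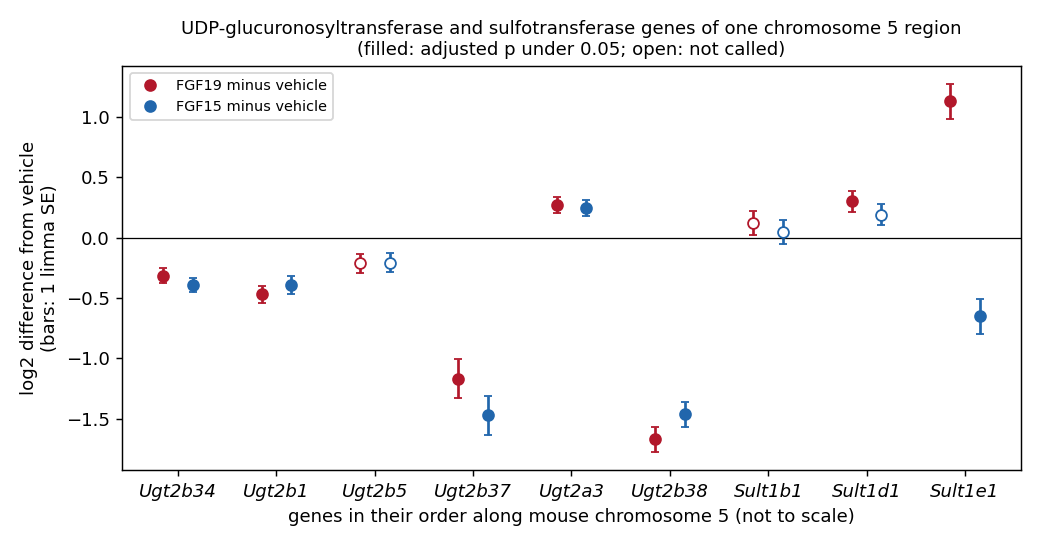
Log2 difference from vehicle (vertical axis) of the 9 measured UDP-glucuronosyltransferase and sulfotransferase genes of a region of chromosome 5, in gene order from left to right and not to scale, with FGF19 left of FGF15 for each gene. Bars are 1 limma standard error, filled points passed an adjusted p under 0.05 and open points did not. Ugt2a3 lies above 0 between Ugt2b37 and Ugt2b38, which lie far below it, and the FGF19 and FGF15 points of Sult1e1 lie on opposite sides of 0.

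The sulfotransferases held the only transferase gene called in opposite directions with the hormones. Sult1e1, the estrogen sulfotransferase, had signals of 184 and 148 with FGF19, 27.4 and 23.4 with FGF15, and 58.6 and 57.7 with vehicle. The FGF19 arrays were the highest and the FGF15 arrays the lowest, with vehicle between them. Sult1e1 rose 2.19-fold with FGF19 (log2 1.13 ± 0.14, adjusted p = 0.000680) and fell 1.57-fold with FGF15 (log2 −0.65 ± 0.14, adjusted p = 0.0155). The rise held in every alternative setting. The fall was lost without either vehicle array or the second FGF15 array (adjusted p = 0.0807, 0.0680 and 0.0710), with log2 values of −0.70 to −0.60 over all fits without 1 array.
The promoter window of Sult1e1 is printed for comparison with its chromosome 5 neighbours, with capitals on TGACCT, which is AGGTCA on the opposite strand (bases −113 to −108).
Sult1e1, chr5:87591562-87591861, minus strand: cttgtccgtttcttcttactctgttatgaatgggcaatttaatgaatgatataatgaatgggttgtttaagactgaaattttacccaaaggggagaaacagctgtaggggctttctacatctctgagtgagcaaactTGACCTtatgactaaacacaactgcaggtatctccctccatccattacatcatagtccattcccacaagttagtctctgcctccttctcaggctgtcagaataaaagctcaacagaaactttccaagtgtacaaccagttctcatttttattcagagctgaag
AGGTCA was found in the windows of 7 of the 35 transferase genes that have one, namely Gstk1, Gstm1, Sult1b1, Sult1e1, Ugt2b37, Ugt2b38 and Ugt2b5. The core of the antioxidant response element, TGACNNNGC on either strand, was in those of 4 (Gsta3, Gstm5, Gstm7 and Mgst1) and in 12.4% of all windows.

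Sult1a1, the phenol sulfotransferase, had signals of 3215 and 3733 with FGF19, 3115 and 3310.0 with FGF15, and 2336 and 2316 with vehicle. It rose 1.48-fold with FGF19 (log2 0.57 ± 0.08, adjusted p = 0.00121) and 1.38-fold with FGF15 (log2 0.46 ± 0.08, adjusted p = 0.00434), with all treated arrays above both vehicle arrays. Sult5a1 had 167 and 194 with FGF19, 195 and 169 with FGF15, and 406 and 329 with vehicle. The treated arrays of the hormones overlapped and lay below both vehicle arrays. Sult5a1 fell 1.87-fold with FGF19 (log2 −0.90 ± 0.12, adjusted p = 0.000862) and 1.86-fold with FGF15 (log2 −0.90 ± 0.12, adjusted p = 0.000969), and both calls held in every alternative setting.

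Sult1d1, which in mice sulfates catecholamines, lies between Sult1b1 and Sult1e1. Its signals were 2525 and 2711.5 with FGF19, 2501 and 2333 with FGF15, and 1943 and 2305 with vehicle. It rose with FGF19 (log2 0.30 ± 0.09, adjusted p = 0.0467), a call lost in 10 of 19 alternative settings, among them those without the first vehicle array (adjusted p = 0.334), either FGF15 array (0.0580 and 0.0588), the first FGF19 array (0.0691) or the second (0.170). With FGF15 its log2 difference was 0.19 (not called, adjusted p = 0.205). A second probe set (1418138_at) read 1239 and 1173 with FGF19, 848 and 876 with FGF15, and 831 and 918 with vehicle. On it the FGF19 arrays lay above all others, and in the fit of all probe sets it was higher with FGF19 than with vehicle (log2 0.45, adjusted p = 0.00413) and than with FGF15 (log2 0.47, adjusted p = 0.00695). Leaving out the first vehicle array ended the call against vehicle (0.0570), and leaving out the first FGF15 or first FGF19 array ended the call against FGF15.

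Sult1b1 and Sult1c2 were not called, with log2 differences of 0.12 and 0.05 with FGF19 and 0.05 and 0.02 with FGF15. Sult1c1, Sult2a2, Sult2b1, Sult3a1 and Sult4a1 were under the filter. Together with Mgst2 they had signals of 0.779 to 19.6 over the 6 arrays. In mouse liver Sult2a2 and Sult3a1 are known as female-predominant genes, and the mice were male. The part of sex in these low signals was not tested.

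The hormones were then compared with each other, at the same time after injection and with doses that are not given. FGF15 and FGF19 are orthologous proteins that differ in amino acid sequence. Over all 9685 genes, 2.41% were higher and 1.89% lower with FGF19 than with FGF15. Of the 34 transferases, 3 were higher (8.82%) and 0 lower in limma, and the lower count was also 0 at an unadjusted p under 0.05. Sult1e1 differed most, 3.43-fold (log2 1.78 ± 0.14, 95% interval 1.46 to 2.10, adjusted p = 8.09e-05). Gsta4 was 1.50-fold higher with FGF19 (log2 0.59 ± 0.08, interval 0.40 to 0.77, adjusted p = 0.00266) and Gsta2 1.25-fold higher (log2 0.32 ± 0.07, interval 0.17 to 0.46, adjusted p = 0.0231). The FGF19 arrays lay above the FGF15 arrays in all 3 genes.

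The Sult1e1 difference held in every alternative setting, and that of Gsta4 in all but the fit with no intensity trend. The Gsta2 call ended without the first FGF19 array (adjusted p = 0.139), either FGF15 array (0.0885 and 0.0945) or either vehicle array (0.0520 and 0.0527). For the genes that were not called, the intervals bound the size of a difference. That of Sult5a1 was −0.28 to 0.26 and that of Gstm6 −0.14 to 0.21. For Ugt2b38 it was −0.44 to 0.03, for Ugt2b37 −0.05 to 0.66, and for Mgst3 0.11 to 0.71 around a log2 difference of 0.41 (adjusted p = 0.145).

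**Figure D4:**
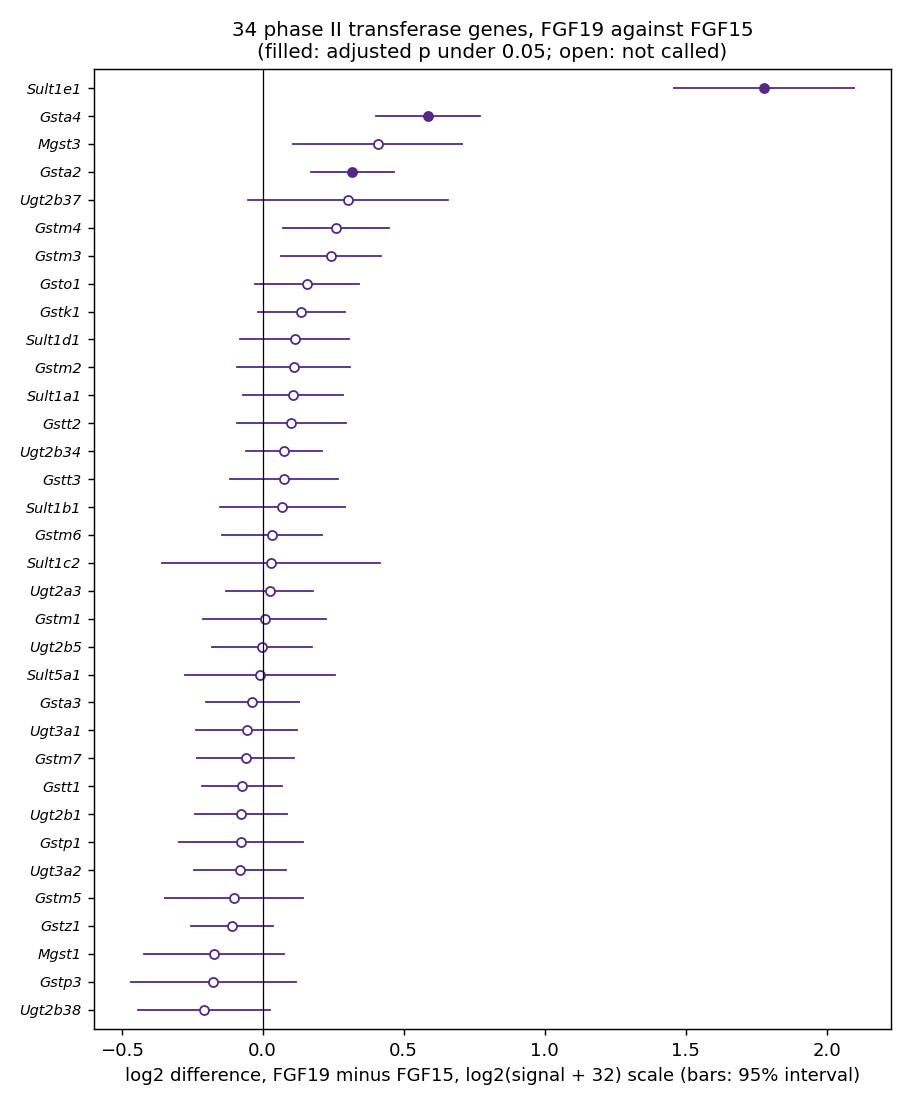
Log2 difference between FGF19 and FGF15 (horizontal axis, log2(signal + 32) scale) of the 34 tested transferase genes (rows, in order of the difference). Points are limma estimates, bars are 95% intervals that are not adjusted for the number of genes, filled points passed an adjusted p under 0.05 and open points did not. Sult1e1 stands apart at 1.78, followed by Gsta4 at 0.59, and the other genes lie between −0.21 and 0.41.

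Among the genes that make and handle the co-substrates of these enzymes, calls went in both directions. For this list and those below, the shares over all genes tested were 6.29% higher and 7.27% lower with FGF19. With FGF15 they were 5.91% and 6.67%. Small counts in lists this short can lie near those shares, and no list was tested against them. Of 14 tested genes of glutathione synthesis and recycling, 2 rose and 1 fell with FGF19 (median log2 0.01) and 3 rose and 2 fell with FGF15 (median −0.16). Gclc, the catalytic subunit of the enzyme that makes γ-glutamylcysteine, rose by log2 0.87 ± 0.09 with FGF19 (mean signal 1981, against 1064 with vehicle, adjusted p = 0.000167) and was 2.08-fold higher with FGF19 than with FGF15 (adjusted p = 0.000112). Its modifier subunit Gclm fell by log2 0.42 with FGF19 (adjusted p = 0.00278). Txnrd1, thioredoxin reductase, rose by log2 0.39 with FGF19 (adjusted p = 0.00841) and 0.41 with FGF15 (adjusted p = 0.00727). The calls on Gclc and Gclm held whichever array was left out. Those on Txnrd1 ended without the second vehicle array, and without the first FGF19 array or the second FGF15 array (adjusted p of 0.0503 to 0.0816). Without the first FGF19 array 1 gene rose and 1 fell with FGF19. Without any one of the 4 FGF15 and vehicle arrays, 1 to 2 rose and 0 to 1 fell with FGF15. Centring on array medians gave 4 rises with FGF19 and ended both falls with FGF15.

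Of 7 tested genes of UDP-glucuronate supply, 2 fell and 0 rose with FGF19 (median 0.06), and 3 fell and 2 rose with FGF15 (median 0.06). At an unadjusted p under 0.05, 1 gene was higher with FGF19 in limma. Ugdh, which oxidises UDP-glucose to UDP-glucuronate, had a mean signal of 1213 with FGF19, 1122 with FGF15 and 1576 with vehicle. It fell by log2 0.37 with FGF19 (adjusted p = 0.00387) and by 0.48 with FGF15 (adjusted p = 0.000895). With centring on array medians the FGF19 call ended (adjusted p = 0.0807), and 3 genes of this list rose with FGF19. Without any one of the 4 FGF15 and vehicle arrays, 0 to 1 rose and 1 to 3 fell with FGF15, and without the second FGF19 array or either vehicle array 1 fell with FGF19.

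Of 12 tested genes of PAPS and sulfate supply, 2 rose and 2 fell with FGF19 (median −0.17), and 1 rose and 3 fell with FGF15 (median −0.17). Slc26a1, a sulfate transporter, had a mean signal of 403 with FGF19, 617 with FGF15 and 858 with vehicle. It fell by log2 1.04 with FGF19 (adjusted p = 0.000114) and by 0.46 with FGF15 (adjusted p = 0.0151), and the FGF15 call ended without either vehicle array or the first FGF15 array (up to 0.0998). Csad, which makes hypotaurine from cysteine sulfinate, had a mean signal of 1123 with FGF19, 472 with FGF15 and 692 with vehicle. Csad rose by log2 0.67 with FGF19 (adjusted p = 0.000211) and fell by 0.52 with FGF15 (adjusted p = 0.00104), the same pattern of calls as Sult1e1. Its difference between the hormones was 2.29-fold (adjusted p = 8.75e-06), and all 3 calls held whichever array was left out. Without the first FGF19 array 1 gene of the list rose and 1 fell with FGF19. With each array left out in turn, 0 to 1 rose and 1 to 4 fell with FGF15, the fewest without the first vehicle array.

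Of 16 tested genes of methyl, acetyl and acyl conjugation, 2 rose and 1 fell with either hormone (medians −0.07 with FGF19 and −0.08 with FGF15). Inmt, an indole and thioether methyltransferase, rose 2.77-fold with FGF19 (adjusted p = 4.25e-07) and 2.32-fold with FGF15 (adjusted p = 2.12e-06). The fall with FGF19, in Glyat, ended without any one of the 6 arrays (adjusted p of 0.0631 to 0.207), and the fall with FGF15, in Acot12, without any one of the 4 arrays compared (0.0684 to 0.252). The rises of Nnmt with FGF19 and Nat2 with FGF15 ended without either vehicle array, and that of Nat2 without the first FGF15 array. Of 21 tested genes of epoxide, aldehyde and quinone detoxification, 6 rose and 0 fell with FGF19 (median 0.08), and 3 rose and 1 fell with FGF15 (median 0.07). At an unadjusted p under 0.05 in limma, 3 were lower with FGF19. With centring on array medians 8 rose with FGF19 and 7 with FGF15. With each array left out in turn, 3 to 7 rose with FGF19 and 2 to 4 with FGF15, the fewest with FGF19 without the second vehicle array and with FGF15 without either vehicle array or the second FGF15 array. Aldh3a2, which oxidises long-chain aldehydes, rose 1.83-fold with FGF19 and 1.97-fold with FGF15, and Ces1d, a carboxylesterase, rose 1.81-fold with FGF19 and 1.54-fold with FGF15 (adjusted p of 2.42e-05 to 0.000283 for the 4 values). Of 9 tested genes of conjugate efflux, 1 rose and 1 fell with FGF19 (median −0.04), and 2 rose and 0 fell with FGF15 (median −0.18), where 3 were lower at an unadjusted p under 0.05 in limma. Abcc3, which exports glucuronides into blood, rose 1.79-fold with FGF19 (adjusted p = 2.19e-05) and 1.73-fold with FGF15 (adjusted p = 3.66e-05). The calls on Inmt, Aldh3a2, Ces1d and Abcc3 held whichever array was left out. The fall of Abcc5 with FGF19 ended without the first FGF19 or first vehicle array (adjusted p = 0.221 and 0.235), and the rise of Abcc6 with FGF15 without any one of the 4 arrays compared (0.0514 to 0.0775).

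Of 16 tested transcription factor genes that act on phase II genes, 2 rose and 2 fell with either hormone (medians −0.01 with FGF19 and −0.02 with FGF15). Nr1h4, which encodes the bile acid receptor FXR, had a mean signal of 527 with FGF19, 801 with FGF15 and 986 with vehicle. It fell by log2 0.87 with FGF19 (adjusted p = 6.15e-05) and was lower with FGF19 than with FGF15 (log2 −0.58, adjusted p = 0.00196). Rora, a nuclear receptor, had 691 with FGF19, 362 with FGF15 and 277 with vehicle, and rose by log2 1.23 with FGF19 (adjusted p = 9.48e-06). Nr1i3, which encodes CAR, had 326 with FGF19, 442 with FGF15 and 268 with vehicle and rose by log2 0.66 with FGF15 (adjusted p = 0.000560). These 4 calls held whichever array was left out. Without either FGF19 array or the second vehicle array 1 factor gene fell with FGF19. The falls with FGF15, in Nr1h4 and Nr1i2, ended without the first FGF15 array or either vehicle array, and that of Nr1h4 also without the second FGF15 array. Centring on array medians gave 4 rises and 1 fall with FGF19 and 3 rises with FGF15.

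Of 16 tested classic target genes of CAR, PXR, AhR or NRF2, 4 rose and 3 fell with FGF19 (median −0.06), and 3 rose and 2 fell with FGF15 (median −0.06). The members did not move as one. The CAR target Cyp2b10 and its relative Cyp2b9 had log2 differences of 1.00 and 0.18 with FGF19 and 1.32 and 1.72 with FGF15. All were called except Cyp2b9 with FGF19. The NRF2 target Srxn1, sulfiredoxin, fell by log2 1.23 with FGF19 (adjusted p = 5.45e-06) and by 1.51 with FGF15 (adjusted p = 1.90e-06), in the opposite direction to Gsta2. Tiparp, an AhR target, rose 3.58-fold with FGF19 (adjusted p = 9.27e-07) and was 3.62-fold higher with FGF19 than with FGF15 (adjusted p = 2.54e-06). Cyp1a2, also known as an AhR target, was lower with FGF19 (adjusted p = 0.0129), a call that ended with centring on array medians (adjusted p = 0.288). Hmox1, heme oxygenase and also a gene of macrophages, fell by log2 1.09 with FGF15 (adjusted p = 5.39e-05). It was higher with FGF19 than with FGF15 (adjusted p = 0.000592), and the part of macrophages in these values was not tested. Without the first FGF19 array 3 genes rose and 3 fell with FGF19. With each array left out in turn, 2 to 5 rose and 2 to 4 fell with FGF15, the most without either FGF19 array, and 2 to 5 fell with FGF19, the most without the second FGF19 array.

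Lists of genes with sex-biased or zoned expression in liver were read beside the transferases. Of 13 tested male-predominant genes, 8 fell and 3 rose with FGF19 (median −0.46), and 7 fell and 2 rose with FGF15 (median −0.24). Hsd3b5, a steroid dehydrogenase, fell 3.62-fold with FGF19 (adjusted p = 5.62e-07) and 2.65-fold with FGF15 (adjusted p = 4.79e-06), and Cyp7b1, an oxysterol hydroxylase, fell 2.31-fold with FGF19 and 2.23-fold with FGF15 (adjusted p = 2.13e-06 and 4.07e-06). With each array left out in turn, 6 to 8 of the genes fell with either hormone, while 1 to 3 rose with FGF19 and 0 to 2 with FGF15, the fewest without a vehicle array. Of 12 tested female-predominant genes, 3 rose and 1 fell with either hormone (medians 0.05 with FGF19 and 0.03 with FGF15). The gene that fell was Cux2, a female-predominant transcription factor. Its call with FGF19 (adjusted p = 0.0498) ended without any one of the 6 arrays (0.0543 to 0.283) and with centring on array medians (0.102), and its call with FGF15 without the first vehicle array or either FGF15 array (0.0764 to 0.171). Without either FGF19 array or either vehicle array 2 genes rose with FGF19. Of 12 tested pericentral genes, 0 rose and 4 fell with FGF19 (median −0.26), and 2 rose and 0 fell with FGF15 (median 0.13). At an unadjusted p under 0.05 in limma, 2 were higher with FGF19 and 1 was lower with FGF15. Of the 4 falls with FGF19, only that of Cyp1a2 was called without the first FGF19 array, and it ended without either vehicle array (adjusted p = 0.117 and 0.0938). With centring on array medians all 4 calls ended. With FGF15, 1 pericentral gene rose without either vehicle array or the second FGF15 array, and 2 fell without either FGF19 array. Of 8 tested periportal genes, 1 rose and 3 fell with FGF19 (median −0.21), and 1 rose and 1 fell with FGF15 (median −0.15). With each array left out in turn, 1 to 5 fell with FGF19, the fewest without the first vehicle array and the most without the second FGF19 array, and 1 to 3 fell with FGF15, the most without either FGF19 array.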

How the data were processed

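Whole-liver RNA was hybridised to Affymetrix Mouse Genome 430A 2.0 arrays, per the labels. The deposited values are signal intensities on a linear scale, 1 per probe set and array, which the authors had scaled to one trimmed mean per array, as the values show. What summarised the probes is not given in the sources used here. Intensities were converted to log2(signal + 32). Of 22690 probe sets, 20380 were paired with 1 gene by the platform annotation, 691 with several and 64 were controls. Each gene was represented by its probe set of highest mean signal. Genes under the 25th percentile, a signal of 14.0, were left out (2708 genes), which left 9685.

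All 6 arrays entered 1 linear model on group in limma 3.58.1 (R 4.3.3), by lmFit and by eBayes with the intensity trend. Residual degrees of freedom were 3 and prior ones 6.83. Log2 differences had a median standard error of 0.13, a precision that the 2 arrays a group limit. The 3 contrasts were FGF19 minus vehicle, FGF15 minus vehicle and FGF19 minus FGF15. Tests were two-sided, adjusted by Benjamini-Hochberg over all genes tested, and every adjusted p is from limma. The transferase genes, the 12 pathway lists, the 9 marker lists and the alternatives were chosen with earlier results of these data known. All members could be named. Values in every array were given for called members and the 5 of highest mean signal, and at most 4 called genes a list and contrast were named. Gene names and order came from RefSeq tables (GRCm38.p6), in which 35 of the 40 genes had a promoter window. Promoters were aligned with Biopython 1.88. Plots were made in Python 3.11.15 using matplotlib 3.10.9. The fit was tested on simulated data.

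The replicate numbers of the labels were checked for pairing. Across genes, the difference between replicates 1 and 2 in a group correlated with that in another at 0.08 (FGF15 and vehicle), −0.02 (FGF19 and vehicle) and 0.05 (FGF19 and FGF15). No pairing was seen across genes at large, and a shared step that moved few genes would not show in this check.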

Additional observations from a re-analysis of the deposited data

Results flagged for a closer look

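For 3 transferase genes the test of the difference between the hormones' effects passed an adjusted p under 0.05 in limma: Sult1e1, with a log2 difference of 1.78 between FGF19 and FGF15, Gsta4, with 0.59, and Gsta2, with 0.32. A probe set that the comparisons by gene do not use also moved. Probe set 1421041_s_at is paired with 3 genes that include the alpha class of glutathione S-transferases, and so stands for no single gene. It read 1578 and 1558.7 with FGF19, 963 and 1005 with FGF15, and 626 and 638 with vehicle. The 3 groups did not overlap. In the fit of all probe sets its log2 difference from vehicle was 1.27 with FGF19 (adjusted p = 3.33e-06) and 0.61 with FGF15 (adjusted p = 0.000365), and FGF19 and FGF15 differed by log2 0.66 (adjusted p = 0.000508).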

How the results depend on the processing

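With 2 arrays a group, the number of arrays limits what can be called. The alternatives below include a looser threshold of 0.10 on the same fit, where no call could be lost. There were 19 alternatives, and over these the 42 calls on transferase genes gave 798 values, of which 699 kept their direction and side of the threshold, 99 kept their direction only and 0 reversed. Of the 22 calls with FGF19, the 17 with FGF15 and the 3 between the hormones, 12, 11 and 2 held in every fit without 1 array. Left out in turn, the arrays gave 9 to 12 higher and 4 to 8 lower transferases with FGF19, 7 to 11 higher and 4 to 9 lower with FGF15, and 2 to 3 higher and 0 to 2 lower with FGF19 than with FGF15. The lowest counts against vehicle came without a vehicle array, and the 4 lower with FGF15 also without the second FGF15 array, and a group left with 1 array was assumed to vary like the others.

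Without an intensity trend, 8 transferases were higher and 4 lower with FGF19, 6 higher with FGF15, and 1 higher with FGF19 than with FGF15. Centring on array medians gave 5 lower with FGF19, and counting all probe sets gave 6 higher with FGF19 than with FGF15. The replicate number as a block gave 14 higher and 8 lower with FGF19, 10 higher and 7 lower with FGF15, and 3 higher and 0 lower between the hormones, and so changed no count.

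Over all genes, 297 rose and 434 fell with FGF19 and 242 rose and 393 fell with FGF15 without a trend, and 110 were higher and 53 lower with FGF19 than with FGF15. These compare with 609, 704, 572, 646, 233 and 183 as reported. Centring gave 1218 and 330 with FGF19 and 1007 and 356 with FGF15. Without 1 array the counts were 316 to 613 higher and 283 to 747 lower with FGF19, 271 to 577 higher and 267 to 622 lower with FGF15, and 137 to 192 higher and 97 to 170 lower between the hormones. The cause of these shifts was not tested, apart from the fewer arrays.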
